A study of Drosophila melanogaster with 4 samples.

Results

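HP1b-enriched regions along the left arm of chromosome 2 (2L) of Drosophila melanogaster were described from chromatin immunoprecipitation followed by sequencing (ChIP-seq) of head nuclei. The regions are those that the authors listed as significantly enriched in a combined list for the replicate set, with a start below position 21011545 of the FlyBase release 5 sequence of 2L, so that the 2 Mb next to the centromere are left out. These 1219 regions, called clusters here, were 15.6% of the 7807 enriched clusters of the combined list. The same limits left 1073 of 6687 clusters in the list of ChIP replicate 1 and 1024 of 6471 in that of replicate 2. The study held 4 samples of wild-type Oregon-R flies at the mixed adult stage: 2 immunoprecipitations with the HP1b antibody Q4114 and 2 inputs of chromatin that was not immunoprecipitated, each serving the ChIP sample of the same number. Heads were taken from adults of population cages with sieves, so each sample pools many flies of unstated sex ratio and all cell types of the head. The labels do not say whether the replicates came from separate collections, so the spread between them may be technical. The inputs enter only as far as the authors used them in calling clusters, and read depth is unknown.

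HP1b is one of the HP1 chromatin proteins of the fly, which share a chromodomain that binds histone H3 methylated at lysine 9 and a chromoshadow domain through which HP1 proteins pair with each other and with partner proteins. Its best studied relative, HP1a, gathers in the heterochromatin around centromeres and at telomeres, whereas HP1b is known from both heterochromatin and the gene-rich euchromatin. The stretch of 2L described here is mostly euchromatin and ends outward in the telomere, which in flies is built of retrotransposons rather than of telomerase repeats. No gene is named for any position, because positions here are on release 5 and the annotation given was of release 6.

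HP1b clusters on 2L were many and mostly narrow, with a minority of wide ones. They covered 13.7% of the 21.0 Mb in replicate 1 and 13.0% in replicate 2, a mean of 13.4% ± 0.460 (SD, n = 2), and 15.4% in the combined list. Density was 51.1 clusters per Mb in replicate 1 and 48.7 in replicate 2. Median width was 2267 bp in replicate 1 and 2271.5 bp in replicate 2, and the middle 50% of clusters lay between 1973 and 2868 bp and between 2007 and 2825 bp. The narrowest cluster was 1302 bp in replicate 1 and 1301 bp in replicate 2, while the combined list went down to 1001 bp. The widest cluster was 13166 bp in replicate 1, 13226 bp in replicate 2 and 13239 bp in the combined list. The last cluster inside the limit of the rule began at position 20995960 and was 1640 bp wide with a score of 0.267, and the first outside it began at 21050880 and was 2734 bp wide with a score of 2.23.

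Most of the 2L clusters were found in both replicates, and those that were not were narrow and of low score. Of the 1219 clusters, 937 (76.9%) were overlapped by at least 1 bp in each replicate, against a background of 75.0% over the whole combined list. The combined list is that of the set of these same replicates, so the overlap is not independent support. In all 937, replicate 1 and replicate 2 clusters each covered 50% or more of the length. A further 103 were overlapped in replicate 1 alone, 60 in replicate 2 alone and 119 (9.76%) in neither. Replicate support went with width: it was 0 of 122 clusters narrower than 1500 bp, 97 of 246 from 1500 to under 2000 bp (39.4%), 555 of 565 from 2000 to under 3000 bp (98.2%), 207 of 208 from 3000 to under 5000 bp and 78 of 78 at 5 kb or wider. Clusters in both replicates had a median width of 2473 bp and a median score of 1.09, and those in neither had 1292 bp and 0.327. The score is the authors' own value per cluster, for which no source used here gives a formula or scale, and it is used here to rank and describe clusters within a list and, for matched clusters, to set the values or order of the lists side by side.

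**Figure D1:**
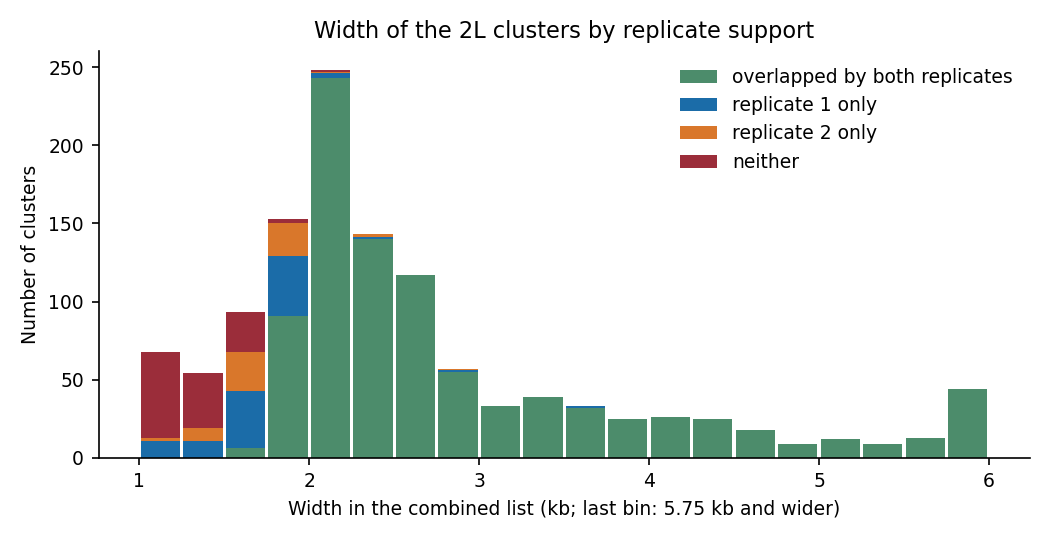
Width of the 1219 clusters on 2L in the combined list, in bins of 0.25 kb with all wider clusters in the last bin, which starts at 5.75 kb; colours show whether clusters of both, 1 or neither replicate overlap them by 1 bp. Clusters in neither replicate sit at the narrow end, and all 44 in the last bin are in both replicates.

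Of the 119 clusters in neither replicate, 61 (51.3%) were narrower than the 1301 bp of the narrowest cluster of either replicate list, so that the replicate lists held none of that size. Their median distance to the nearest replicate cluster was 3875 bp, and 65 lay within 5 kb of one. Measured instead to the nearest other cluster of the combined list, 51.5% of the 305 lowest-scoring clusters had one within 5 kb. For the 305 highest-scoring it was 77.4%. Among the 119, the 3 of highest score began at 20197113 (1041 bp wide, score 0.797), 15657446 (1419 bp, 0.720) and 6881937 (1483 bp, 0.639). All 3 scores were below the median of 1.09 of the clusters found in both.

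Matched directly, the replicates listed most 2L clusters at the same places with nearly the same borders. In replicate 1, 962 of 1073 clusters (89.7%) overlapped a replicate 2 cluster, against 89.7% over the whole list. In replicate 2, 962 of 1024 (93.9%) overlapped a replicate 1 cluster, against 92.8% over the whole list. These shares are near the background of the whole lists. The replicates shared 2.55 Mb of the 3.07 Mb covered by either, a Jaccard index of 0.832. Among 912 clusters matched one to one, starts differed by a median of 44 bp and ends by 45 bp, and both ends lay within 100 bp in 515 pairs (56.5%). No pair had the same start and end. Where borders differed they could differ by more, since 10% of the pairs had starts at least 265 bp apart. Scores of the pairs had a Spearman's rho of 0.950 and a Pearson's r of 0.969, and widths a rho of 0.913. These are descriptions over clusters that share 2 libraries. Clusters with no counterpart had median scores of 0.403 in replicate 1 and 0.378 in replicate 2, and the highest were 0.876 and 0.888. Over all clusters splitting differed little, as 17 clusters of each replicate overlapped more than 1 cluster of the other. Several of the widest clusters, described below, were divided differently.

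**Figure D2:**
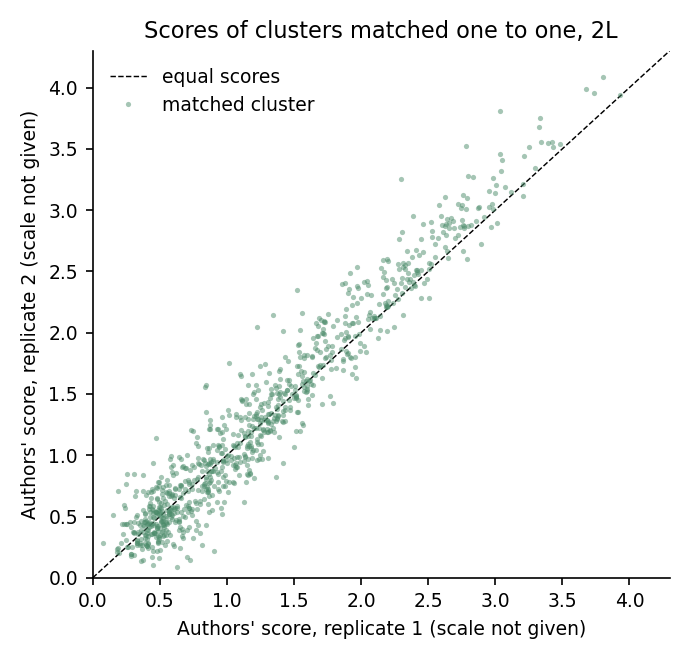
Authors' score in replicate 2 against that in replicate 1 for the 912 clusters of 2L that match one to one, 1 point per cluster, with the line of equal scores. The order of the clusters is much the same in both lists (Spearman's rho 0.950).

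The 10 highest-scoring clusters were each wider than the median of 2240 bp of the combined list, though none was 5 kb wide. Between replicates their starts differed by 4 to 32 bp in 9 of them and by 200 bp in the one at 16485156, and their ends by 17 to 75 bp. The first by score in the combined list spanned 8996320 to 8998723 and was 2404 bp wide, scoring 3.93 there, 3.80 in replicate 1 and 4.09 in replicate 2. It began at 8996334 in replicate 1 and 8996327 in replicate 2, and its nearest neighbour in the combined list lay 36770 bp away. Next came 7798716 to 7801501 (2786 bp), which scored 3.93 in replicate 1 and 3.94 in replicate 2 and ranked 1 and 4 on 2L. The cluster from 7450968 to 7453473 ranked 3 in every list, and that from 18687703 to 18690747 ranked 4 in the combined list and in replicate 1 and 2 in replicate 2. The other 6 of the 10 began at 6683246, 11105649, 16655587, 16485156, 1168830 and 8161344, with combined scores of 3.46 to 3.53. Each of the 10 was a single cluster in both replicates, and widths went from 2.37 to 3.83 kb. Of the 10, 2 lay in the outer, 5 in the middle and 3 in the inner of 3 equal parts of the 21.0 Mb. Those at 6683246, 7450968, 7798716, 8161344 and 8996320 all fell in windows 27 to 36 of 250 kb, counted from the telomere end. No window held more than 1, though those at 7798716 and 8161344 lay in neighbouring windows. So did those at 16485156 and 16655587. The cluster at 16655587 was placed unlike in the replicates, at rank 21 on 2L in replicate 1 and rank 5 in replicate 2.

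A minority of wide clusters carried a sizeable part of the covered sequence. Those of 5 kb or wider were 78 of 1219 (6.40%), against a background of 7.20% over the combined list, and held 16.1% of the covered length on 2L. In replicate 1 they were 55 of 1073 (5.13%, background 6.40%) and in replicate 2 they were 59 of 1024 (5.76%, background 6.41%). The background includes X, where wide clusters were 9.93% and 9.34%. It also includes all clusters outside the long arms as limited here, for which no share is given. On the other autosomal arms the shares were lower than on 2L in both replicates, at 4.28% and 3.46% on 2R, 4.87% and 4.70% on 3L and 4.89% and 4.65% on 3R. The widest spanned 2191292 to 2204530 and was a single cluster of 13166 bp in replicate 1 and 13226 bp in replicate 2. The next, 12001008 to 12013184, was 12177 bp wide, 1 cluster in replicate 1 and 2 in replicate 2. The cluster from 4996487 to 5008583, of 12097 bp, was 1 cluster in replicate 1 and 3 in replicate 2. The replicate lists thus divided these last 2 regions differently, whereas the widest was undivided in both. The other 7 of the 10 widest began at 16267384, 7418044, 20078114, 9561983, 9751089, 2747525 and 1613094, with widths of 8.92 to 11.3 kb. Some of these were also divided differently. Those at 16267384 and 1613094 were each 1 cluster in replicate 1 and 2 in replicate 2. That at 20078114 was 3 clusters in replicate 1 and 1 in replicate 2, and the rest were single in both. None of the 10 widest was among the 10 of highest score, and their scores went from 0.864 to 2.77. Over all clusters, score and width rose together, with Spearman's rho of 0.779 in replicate 1, 0.764 in replicate 2 and 0.775 in the combined list.

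Joined to their neighbours, clusters formed runs of up to 26.2 kb, and 4 of the 5 longest runs held at least 1 cluster of 5 kb or wider. Joining neighbours separated by 1 kb or less turned the 1219 clusters into 1064 regions, of which 940 were single clusters, 100 held 2, 18 held 3, 5 held 4 and 1 held 5. The longest run went from 11987022 to 12013184, 26.2 kb of 4 clusters, of which 87.0% lay under clusters of replicate 1 and 93.3% under those of replicate 2. It was a single run of 26.1 kb in replicate 2, whereas in replicate 1 a gap above 1 kb divided it and the longer piece, from 11994453 to 12013179, was 18.7 kb long. The second, 16267384 to 16289473, was 22.1 kb long with 3 clusters and 94.6% and 93.2% under the replicates. Next came 19008189 to 19028751, 20.6 kb long with 4 clusters in each of the 3 lists. A pair of runs lay close together, 4964164 to 4978376 (14.2 kb, 5 clusters) and 4996487 to 5012135 (15.6 kb, 2 clusters). The first of this pair was the least alike between replicates among the 5 longest, with 88.1% under clusters of replicate 1 and 77.9% under those of replicate 2. Its 5 clusters were 2286 to 3087 bp wide, and in replicate 2 gaps above 1 kb divided it into 3 pieces, the longest of 4.54 kb.

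Gaps between neighbouring clusters ran from 5 bp to 264.5 kb in replicate 1 and from 18 bp to 271.4 kb in replicate 2, with many short gaps and a long tail. The median gap was 6766.5 bp in replicate 1 and 6939 bp in replicate 2, and the middle 50% of gaps lay between 2547 and 20969 bp and between 2597 and 21347 bp. Gaps of 5 kb or less were 41.8% in replicate 1 and 41.9% in replicate 2, and gaps of 1 kb or less 12.4% and 11.7%. At the other end, 84 gaps of replicate 1 and 89 of replicate 2 were 50 kb or longer, and these few gaps took up 35.6% and 39.1% of the 21.0 Mb. Clusters of higher score had nearer neighbours. In the combined list the 305 clusters of lowest score had the next cluster at a median of 4724 bp, and 51.5% of them had one within 5 kb, whereas for the 305 of highest score these values were 2201 bp and 77.4%. The clusters of highest score were also wider, with a median of 2923 bp against 1730 bp for those of lowest score. All of those of highest score were in both replicates (100%), against 29.8% of those of lowest score. The parts of width and of replicate support in the spacing were not tested.

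**Figure D3:**
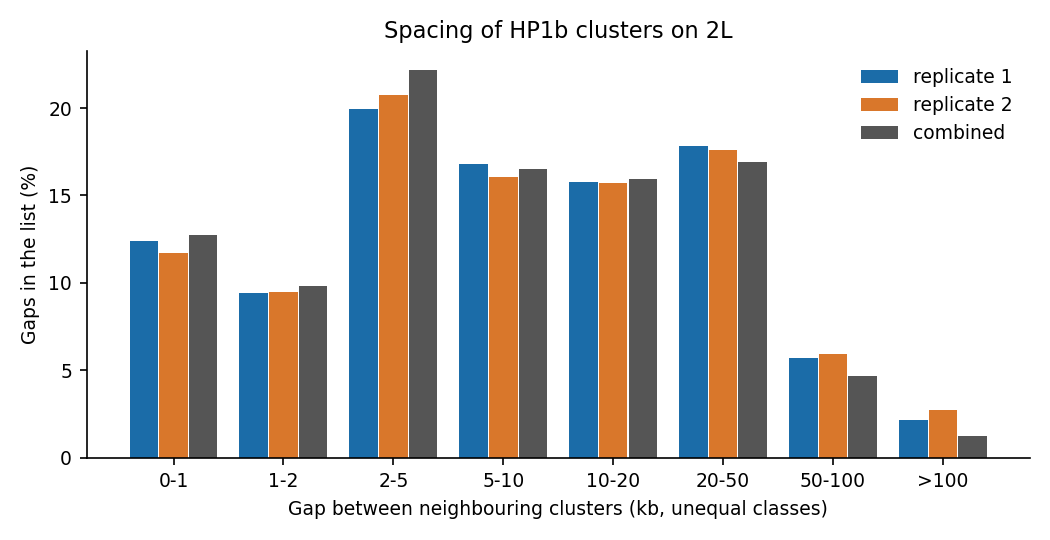
Share of the gaps between neighbouring clusters of 2L in 8 length classes of unequal size, for replicate 1, replicate 2 and the combined list. The lists have the same shape, with 41.8% and 41.9% of replicate gaps at 5 kb or less and 2.15% and 2.74% above 100 kb.

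In windows of 250 kb, coverage along 2L ranged from under 1% to over 40%, with the same windows high and low in both replicates. The 84 full windows, counted from the telomere end, had a mean coverage of 13.4%. Across windows the replicates had a Spearman's rho of 0.977 and a Pearson's r of 0.985, given as a description since windows share the libraries. Of the 10 highest windows of replicate 1, 9 were among the 10 highest of replicate 2, and so were 9 of the 10 lowest. Replicate 2 was lower in 59 windows and higher in 25, and the absolute difference had a median of 0.861 percentage points. The largest differences were in the window from 4250001 to 4500000, at 18.0% in replicate 1 and 14.5% in replicate 2, and in that from 14000001 to 14250000, at 9.67% and 6.17%. Coverage was a matter of cluster number more than of width: across windows it went with the number of clusters (Spearman's rho 0.970 in replicate 1 and 0.968 in replicate 2) and less with their mean width (0.584 and 0.541) or median score (0.379 and 0.251). The number is itself part of coverage, so these values only describe how windows differ. The 21 windows of highest coverage held 41.7% of the covered sequence and the 21 of lowest 9.70%.

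**Figure D4:**
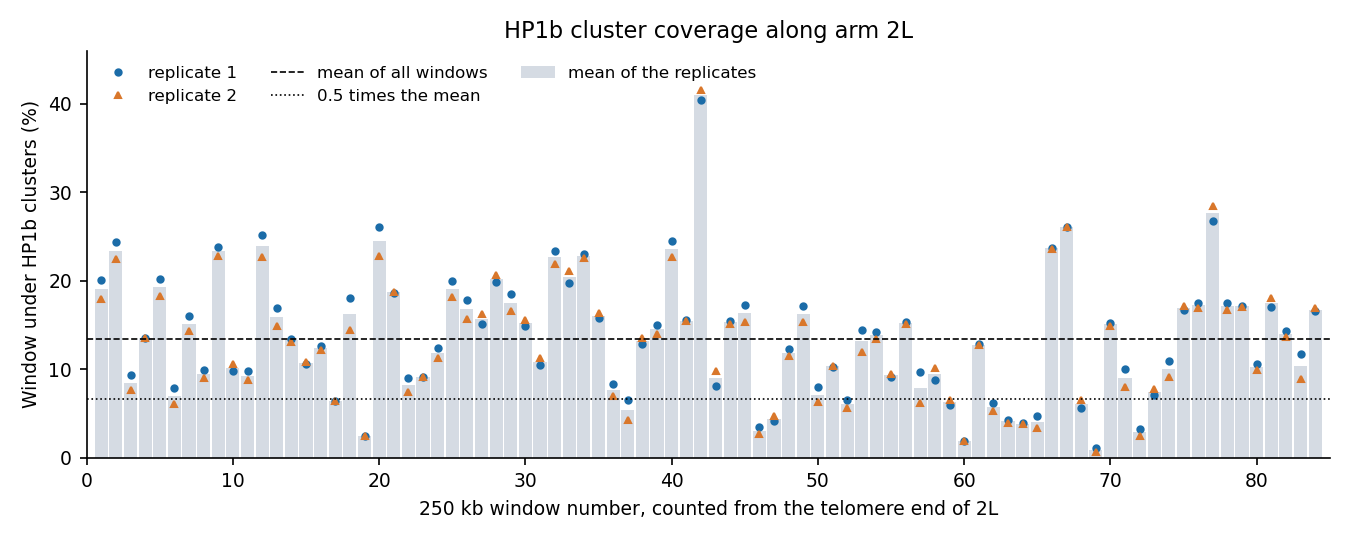
Percent of each 250 kb window of 2L under HP1b clusters, by window number from the telomere end, for replicate 1 (circles) and replicate 2 (triangles) with their mean (bars), the mean of all windows (dashed) and 0.5 times that mean (dotted). Window 42 stands at 40.97%, and 12 of the 15 windows below the dotted line lie among windows 43 to 84, none of them past window 72.

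A single window stood apart from the rest. From 10250001 to 10500000, clusters covered 40.4% in replicate 1 and 41.6% in replicate 2, a mean of 40.97% ± 0.821 (SD, n = 2), which is 3.06 times the mean of all windows and 1.48 times the second highest. It held 32 clusters in replicate 1 and 31 in replicate 2, against medians of 12.5 and 12 per window. Median width was 2629.5 and 2599 bp, against 2267 and 2271.5 bp over the whole stretch of 2L, and 4 and 6 of them were 5 kb or wider, up to 6888 and 6810 bp. Their median gap was 3153 bp and 3411 bp, and 22 of 31 and 20 of 30 gaps were 5 kb or less. Within the window the outer 4 segments of 50 kb were covered over 42.9% ± 2.42, 54.9% ± 2.13, 43.8% ± 0.899 and 44.8% ± 0.126, and the fifth, nearest the centromere, over 18.5% ± 2.80 (SD, n = 2 each). The neighbouring windows were at 15.5% ± 0.0693 on the telomere side and 8.97% ± 1.22 on the other (SD, n = 2 each). On the telomere side the dense stretch did not end at the window edge. In the combined list, most of the covered sequence of that neighbour lay in its last 50 kb, under clusters found in both replicates. A cluster of the combined list also spanned the edge at 10250001. The value of that neighbour thus averages a dense end and a sparser rest. Without this window the coverage of 2L was 13.4% in replicate 1 and 12.7% in replicate 2. The next windows were 19000001 to 19250000 at 27.6% ± 1.22, 16500001 to 16750000 at 26.1% ± 0.0492, 4750001 to 5000000 at 24.4% ± 2.39 and 2750001 to 3000000 at 23.9% ± 1.73 (SD, n = 2 each).

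Sparse windows were more frequent among the inner 42 windows, but none lay past position 18000000, in the part nearest the centromere. Coverage was below 0.5 times the mean in 15 of 84 windows, 3 of them among the 42 nearer the telomere and 12 among the other 42. The longest run of such windows went from 15250001 to 16250000, 4 windows with 4.45% ± 0.475 (SD, n = 2), followed directly by windows at 23.7% and 26.1% that are among the densest of the arm. The lowest window, 17000001 to 17250000, was covered over 1.14% in replicate 1, by 2 clusters, and 0.697% in replicate 2, by 1 cluster. Next were 14750001 to 15000000 at 1.88% ± 0.0232, 4500001 to 4750000 at 2.46% ± 0.0178, 17750001 to 18000000 at 2.87% ± 0.516 and 11250001 to 11500000 at 3.06% ± 0.578 (SD, n = 2 each). The lists hold no read signal, so a sparse window is one in which few clusters were listed.

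The longest cluster-free stretch of the combined list went from 14707449 to 14971965, 264.5 kb, and both replicates had the same stretch, of 264.5 and 264.6 kb. The stretch from 4466190 to 4660088, 193.9 kb, was also shared, at 194.0 kb in replicate 1 and 193.9 kb in replicate 2. Others were broken or lengthened in 1 replicate. That from 11281221 to 11445147 was 163.9 kb in the combined list and in replicate 1 but 216.8 kb in replicate 2, and that from 16945391 to 17104914 was 159.5 kb in the combined list, 215.7 kb in replicate 1 and 159.6 kb in replicate 2. The second longest of the combined list, 17140220 to 17378013 (237.8 kb), was a stretch of 271.4 kb in replicate 2. Replicate 1 listed a cluster inside it, from 17259831 to 17261634, with a score of 0.135, at percentile 0.135 of its list.

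That replicate 1 cluster coincides with a region which the combined list types as depleted rather than enriched, 17259939 to 17261595 (score -0.0617). A second depleted region on 2L outside the pericentric part, 11828498 to 11830364 (score -0.0518), was overlapped by an enriched cluster of replicate 1 with a score of 0.0748 and by one of replicate 2 with a score of 0.288. These clusters were at percentiles 0.0299 and 4.17 of their lists. The lists thus disagree in sign at both places, and the reason was not tested.

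In 3 equal parts of the 21.0 Mb, HP1b coverage was alike in the outer and middle parts and lower in the inner part. It was 14.4% ± 0.757 in the outer part, 14.2% ± 0.374 in the middle and 11.5% ± 0.249 in the inner part (SD, n = 2 each). The inner part was 0.781 times the outer in replicate 1 and 0.816 times in replicate 2. The inner part differed in number more than in width of clusters. Density was 43.8 per Mb in replicate 1 and 42.3 in replicate 2, against 55.0 and 51.8 in the outer part, while median widths were 2240 and 2261.5 bp against 2278 and 2271 bp. Gaps of 100 kb or longer numbered 4 and 5 in the outer part, 8 and 10 in the middle and 11 and 13 in the inner part. In 4 equal parts the decline was not even. From the telomere inward they were covered over 14.4% ± 0.848, 16.5% ± 0.337, 9.56% ± 0.404 and 13.0% ± 0.250 (SD, n = 2 each), so the lowest was not the one nearest the centromere.

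The first 250 kb from the telomere end had higher HP1b coverage than the average of the rest of 2L, but the outermost 50 kb did not. The first cluster began at 17603 in replicate 1 and 17590 in replicate 2, was 2368 and 2461 bp wide and was followed within 0.5 kb by a second that began at 20379 and 20415. The combined list gave these as 17581 to 20051 (score 1.52) and 20389 to 22858 (score 1.38), and the next as 65882 to 68298 (score 0.628). The first 250 kb were covered over 20.1% in replicate 1 and 17.9% in replicate 2, and the rest over 13.6% and 13.0%, which gives ratios of 1.48 and 1.38. These 250 kb are a single window, and the upper quartile of coverage over the 84 windows was 17.5% and 16.9%. Several windows elsewhere on the arm were denser, such as 10250001 to 10500000 at 40.4% and 41.6%. Over the first 500 kb coverage was 22.3% and 20.2%, from 40 and 35 clusters with median widths of 2429.5 and 2427 bp. Within these 500 kb the outermost 50 kb were low, at 9.66% ± 0.0495, the segment from 250001 to 300000 was highest at 52.5% ± 0.328 (SD, n = 2 each), and that from 350001 to 400000 held no cluster in either replicate. The segment from 150001 to 200000 differed most between replicates, at 23.4% with 5 clusters in replicate 1 and 14.9% with 2 in replicate 2. Sequence beyond the end of the assembled arm was not analysed here.

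Beside the other long arms, each without its pericentric 2 Mb, 2L had low coverage of uneven distribution. Its 13.4% ± 0.460 was close to the 13.4% ± 0.502 of 3R and below the 14.0% ± 0.480 of 3L, the 15.7% ± 0.670 of 2R and the 18.8% ± 0.462 of X (SD, n = 2 each). 2L was below 3L in both replicates, at 13.7% and 14.4% in replicate 1 and 13.0% and 13.7% in replicate 2. Taken within each replicate, 2L minus 3L was -0.640 ± 0.0203 percentage points and 2L minus 3R was -0.00352 ± 0.0422 (SD, n = 2 each), the latter of opposite sign in the replicates. Against 2R, 3L and 3R together the ratio was 0.936 in replicate 1 and 0.940 in replicate 2, and the within-replicate difference -0.885 ± 0.0824 percentage points (SD, n = 2). Median widths (2267 and 2271.5 bp) lay within the range of 2247 to 2306 bp of the other autosomal arms. The SD of window coverage divided by its mean was 0.512 and 0.538 on 2L, against 0.435 and 0.450 on 3L, 0.455 and 0.478 on 3R, 0.383 and 0.392 on 2R and 0.431 and 0.453 on X. Both values of 2L were above all those of the other arms. Without the highest window of 2L they were 0.479 and 0.497, still above those of 3R within each replicate. The other arms kept their highest windows here. For the first 250 kb from the telomere end over the rest, where 2L had 1.48 and 1.38, the ratios were 1.02 and 0.946 on 3L, 0.349 and 0.269 on 3R, 0.438 and 0.532 on 2R and 0.592 and 0.611 on X. Over the first 1 Mb, however, the ratio of 3L was higher (1.45 and 1.40) than that of 2L (1.25 and 1.19). All arms of a replicate share its library and there are 2 replicates, so these differences were not tested.

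**Figure D5:**
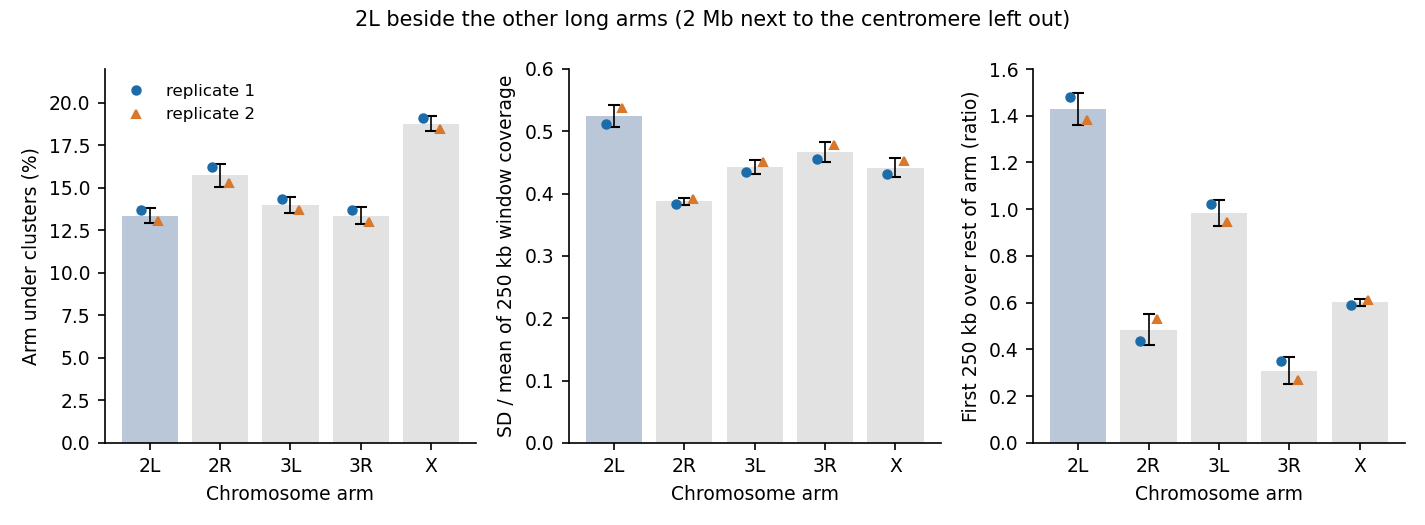
Coverage, SD over mean of 250 kb window coverage, and coverage of the first 250 kb from the telomere end over that of the rest, for 2L (blue bar) and the other 4 long arms without the 2 Mb next to the centromere. Bars are means and error bars SD of 2 replicates, drawn as points; 2L has the highest mean of the 5 arms in the middle and right panels, at 0.525 and 1.43.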

How the data were processed

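ChIP-seq of HP1b was done on 2 ChIP and 2 input samples of Oregon-R head nuclei, grouped by their titles. Per the submitters' processing notes the aligner was Bowtie 0.12.7, and per the file headers the genome was FlyBase release 5. No source used here gives the caller, its threshold, the use of the inputs or how the replicates were combined. Each deposited list gives the start, end and score of every cluster in bp, 1-based, and the authors' score is used within a list and, for matched clusters, side by side between lists. Read depth cannot be known from these lists, so no counting interval or floor can be given.

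Clusters were taken by their start on 2L, and a cluster counted as matched at an overlap of 1 bp. Coverage is the share of sequence under clusters, windows of 250 kb were counted from the telomere end, and the last 11.5 kb were left out of them. Gaps are the bases between neighbouring clusters. Values are given per replicate or as mean and SD of 2 replicates, with no test, because the inputs have no list of their own. The text names the 10 highest-scoring and 10 widest regions found over 50% of their length in each replicate, the first 3 from the telomere end, the 5 longest gaps and runs, the 5 highest and lowest windows, the 3 highest-scoring clusters in neither replicate and the depleted regions. The segments of 50 kb and the windows in which the replicates differ most were chosen after the values were seen, and the members and lists were chosen with earlier results of these data known. Alternatives were another list, score, width, window or end length and each replicate alone. The functions were tested on simulated clusters. Python 3.11.15, numpy 2.4.6, pandas 2.3.3, scipy 1.17.1 and matplotlib 3.10.9 were used.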

Additional observations from a re-analysis of the deposited data

How the results depend on the processing

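With the combined list, 2L coverage was 15.4%, density 58.0 clusters per Mb, median width 2240 bp, median gap 6137 bp, the share of gaps up to 5 kb 44.7% and the window variation (SD over mean) 0.483. The higher-scoring 50% of each list gave 7.90%, 24.1 per Mb, 2666 bp, a ratio to the other autosomal arms of 0.968, and 100% of clusters in both replicates. With the 2L clusters of the combined list in 4 groups by score, 305 of 305 in the highest group were in both. In the next group 303 of 304 were. Clusters of 2 kb or wider gave 11.1%, 36.8 per Mb and 2494 bp. These filters remove clusters by construction, so lower coverage and density follow from them. Joining clusters 1 kb or less apart gave a median gap of 8835.5 bp and 33.9% of gaps up to 5 kb. Window variation was 0.747 with 100 kb windows, 0.372 with 500 kb windows and 0.488 without the highest window, an alternative added after seeing the data. The telomere end ratio was 1.61 over 500 kb and 1.22 over 1 Mb, the inner to outer ratio 0.902 with 4 equal parts, and 81.8% of clusters as wide as the narrowest replicate cluster were in both replicates. For the remaining shifts the cause was not tested. Leaving out a replicate gave 13.0% to 13.7% coverage, 48.7 to 51.1 per Mb, 2267 to 2271.5 bp, gaps of 6766.5 to 6939 bp, 41.8% to 41.9% of gaps, and ratios of 0.512 to 0.538 (windows), 1.38 to 1.48 (telomere), 0.781 to 0.816 (inner to outer) and 0.936 to 0.940 (other arms). Support by both replicates and the score correlation cannot be computed without either replicate. No paired analysis was possible because, of the ChIP and input groups that share replicate numbers, lists of the ChIP samples alone were used; arms were compared within each replicate. Unknown depth limits statements on weak clusters.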

Other observations

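The 2 Mb of 2L next to the centromere, which the description above leaves out, were covered over 11.1% in replicate 1 and 11.8% in replicate 2, by 63 and 67 clusters with median widths of 3033 and 2755 bp. Replicate 2 was higher in the last 1 Mb before the centromere, at 12.6% against 10.99%, and lower in the 1 Mb before it, at 10.99% against 11.3%. The only other depleted region on 2L lies there, from 21898664 to 21900298 (score -0.00806), and is overlapped by an enriched cluster of replicate 1 with a score of 0.141.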
